A study of Mus musculus with 18 samples.

Results

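Cytosolic ribosomal proteins are the protein parts of the ribosomes that translate nuclear mRNAs, and their genes were followed here through light damage of the mouse retina and treatment with TD139. The members were taken by gene symbol, as symbols beginning with Rpl or Rps followed by a number, together with Rpsa, Rplp0, Rplp1 and Rplp2. The kinases of the Rps6k family were left out. This gave 83 of the 23420 gene symbols in the count tables, 50 of the large and 33 of the small subunit. Of these, 80 averaged 10 or more counts over the mice, and 79 passed the filter on low counts and were tested. Rpl26 had 0 reads in all 9 mice, Rpl39l had 0 to 7 reads, and Rpl10l had 18 reads in vehicle-treated mouse 1, 14 in TD139-treated mouse 3 and 0 in the other mice. Rpl3l was the only member that reached the mean and failed the filter.

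Whole retinas came from wild-type BALB/cJ mice of both sexes, 8 to 10 weeks old, an albino strain whose photoreceptors degenerate after bright light. The 3 naïve mice had no light exposure and no treatment. The 3 vehicle-treated mice received daily intraperitoneal DMSO and the 3 TD139-treated mice 15 mg/kg TD139, a small-molecule galectin-3 inhibitor, in DMSO, from 1 day before light of 15000 lux for 1 h. Retinas were collected 4 days after the light. Vehicle-treated and TD139-treated mice therefore differ in the compound, whereas both differ from naïve mice in light and injections together.

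Ribosomal proteins are made in matched amounts in nearly every cell, and their mRNAs are short, abundant and stable. Most carry a terminal oligopyrimidine (TOP) tract, a C followed by a run of pyrimidines at the very start of the mRNA, through which mTOR and LARP1 set how strongly these mRNAs are translated and stored. Photoreceptors, which renew their outer segments daily, are cells with a high demand for protein synthesis.

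The tract was looked for in the promoter table of RefSeq (GRCm38.p6), which lists 74 transcription starts for 62 of the 83 members. The search was for C followed by at least 4 letters that are each C or T, on the transcribed strand only. The run began exactly at 13 of the member starts (17.6%) and at 2.51% of the 32851 starts of all genes. Within 5 bases of the start it was found at 40.5% of member starts and 18.3% of all starts. The windows below are of 30 bases, with the 10 before the start and the 20 from the start on. Capitals mark the tract. Rpl15, Rps18, Rpl38 and Rps15a are shown because they lay at the ends of the fold changes described below, and Rps6 and Rplp2 because the text follows them in each mouse. Rplp0 and Rpl10, which were called in vehicle-treated mice, are shown in lower case because no run began at their listed start.
Rpl15 (chr14:18270967-18270996, minus strand): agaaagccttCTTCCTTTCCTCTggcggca
Rps18 (chr17:33955646-33955675, minus strand): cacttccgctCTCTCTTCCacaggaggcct
Rpl38 (chr11:114668570-114668599, plus strand): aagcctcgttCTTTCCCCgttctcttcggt
Rps15a (chr7:118116128-118116157, minus strand): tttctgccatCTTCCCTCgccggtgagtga
Rps6 (chr4:86857348-86857377, minus strand): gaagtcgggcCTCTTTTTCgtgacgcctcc
Rplp2 (chr7:141447641-141447670, plus strand): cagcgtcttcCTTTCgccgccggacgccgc
Rplp0 (chr5:115559457-115559486, plus strand): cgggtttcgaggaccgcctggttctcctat
Rpl10 (chrX:74270806-74270835, plus strand): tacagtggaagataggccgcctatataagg
A start is listed to the base only as well as the transcripts behind the table, so a missing run says only that these letters are not at that position.

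Each mouse had 26171887 to 30201517 reads on genes, and 197734 to 403630 of them fell on the members. Vehicle-treated mouse 2 stood apart by transcripts of other tissue: the muscle myosin gene Myh4 had 5233 reads there and 0 in the other mice, and the lens crystallin gene Cryaa had 155889 reads against 4 to 5416 elsewhere. Counts of called genes without this mouse are given for the members and for gene sets in which they moved by over 1.5 times. Ddx3y, a gene of the Y chromosome, had over 600 reads in 5 mice and at most 6 in the other 4, with both kinds of mice in each group.

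The share of reads on the members was lowest in TD139-treated mice. It was 1.32%, 1.11% and 0.992% in naïve mice and 1.22%, 1.32% and 1.45% in vehicle-treated mice. In TD139-treated mice it was 0.931%, 0.758% and 0.754%, below every other mouse. The mean share of TD139-treated mice was 0.612 times that of vehicle-treated mice and 0.714 times that of naïve mice. Each of these differences had p = 0.1 in a two-sided exact permutation test over mice, the smallest value that 3 against 3 mice can give. The members were chosen with earlier results of these data known, so this p is a description and no support. Vehicle-treated and naïve mice overlapped, with a ratio of 1.17 and an exact permutation p = 0.2. In bulk tissue, fewer cells of a type and less RNA per cell cannot be told apart.

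Other short mRNAs moved with the members. The 911 tested genes under 1000 bases that are not members held 4.09%, 3.54% and 3.02% of the reads in naïve mice. They held 3.65%, 4.46% and 4.14% in vehicle-treated mice and 2.93%, 2.55% and 2.61% in TD139-treated mice. The mean of TD139-treated mice was 0.661 times that of vehicle-treated mice, against the 0.612 of the members. Genes of 4000 bases or more went the other way, from 33.1 to 35.6% in vehicle-treated mice to 39.6 to 42.6% in TD139-treated mice.

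**Figure D1:**
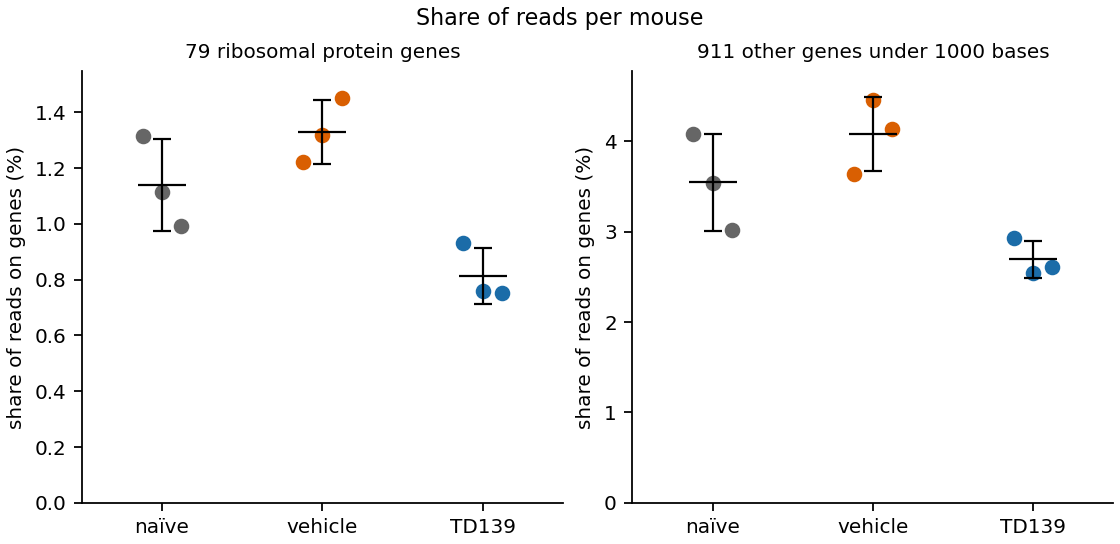
Share of the reads on genes, in percent, that fell on the 79 tested ribosomal protein genes (left) and on the 911 other tested genes with a transcript under 1000 bases (right). Points are mice, lines and bars are the mean ± SD of 3 mice; in both panels the TD139-treated mice lie lowest, at 0.754 to 0.931% on the left and 2.55 to 2.93% on the right.

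Levels between members were compared as CPM (reads of a gene scaled to a common library size, with TMM factors) per kb of transcript. In naïve mice the median over the 80 members was 136.1 CPM per kb. Rplp1, an acidic protein of the stalk that recruits elongation factors, was highest at 911.9 CPM per kb, ahead of the small subunit genes Rps15 (814.9) and Rps29 (605.7). Rpl4 had the most counts of any member, with 446.0 CPM per kb. At the other end lay Rps27 (5.73), Rpl34 (1.39), Rpl30 (0.602) and Rpl3l (0.154), also in CPM per kb. Members share sequence with many pseudogenes, and reads from such a region cannot be assigned to 1 gene with certainty. Of the 83 members, 80 shared at least one 50-base window of their transcript with an annotated pseudogene, and the median share of windows found in no other gene was 50.7%. It was 1.35% for Rps27, 20.8% for Rpl30 and 39.0% for Rpl26, but 62.1% for Rpl34 and 100% for Rpl3l. Rpl9, with 6.68%, had 376.2 CPM per kb in naïve mice. How reads with several matches were counted is not given in the sources used here. The 18 members with under 20% of such windows had a median of 162.8 CPM per kb, against 81.6 for the 11 members with at least 80%. Across the 80 members Spearman's correlation of level and share was −0.08, over genes, which are not independent.

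Vehicle-treated mice, 4 days after light, had 3 members higher than naïve mice and 0 lower. Of 79 tested members, 3.8% were thus higher, where 4.91% of all 15196 tested genes were higher and 2.89% lower. At an unadjusted p under 0.05, 7 members were higher and 0 lower. DESeq2 also called 0 members lower. The median log2 fold change of the members was 0.13, with 71 above 0, against −0.00 for all tested genes.

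Rplp0, the core protein of the stalk, was the highest. It had 91.4, 90.5 and 76.5 CPM in naïve mice and 119.6, 138.0 and 134.0 CPM in vehicle-treated mice. The groups did not overlap, and the log2 fold change was 0.60 ± 0.12 (SE, adjusted p = 0.022).
Rpl10, an X-linked protein near the catalytic centre that joins the large subunit last, went from 80.5, 79.8 and 68.3 CPM to 97.9, 106.5 and 111.9 CPM. Its log2 fold change was 0.47 ± 0.11 (adjusted p = 0.0282).
Rpl15 went from 52.4, 47.2 and 47.0 CPM to 70.7, 61.8 and 63.5 CPM, a log2 fold change of 0.42 ± 0.10 (adjusted p = 0.0358). All 3 genes were separated between the groups mouse by mouse. Such separation was seen for 5 members, or 6.33%, against 16.7% of all tested genes. The other members with separated groups were Rps4x and Rps27l, at log2 fold changes of 0.35 and 0.42, which missed the threshold (adjusted p = 0.0682 and 0.171). The lowest log2 fold changes among members with at least 50 counts were −0.20 for Rps23 and −0.13 for Rpl10a, and both overlapped between the groups. The 3 calls were not stable when 1 mouse was left out. Leaving out naïve mouse 1, naïve mouse 2, naïve mouse 3 or the third vehicle-treated mouse gave 0 higher members, leaving out the first vehicle-treated mouse 1 and the second 2.

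TD139-treated mice had 75 of the 79 tested members lower than vehicle-treated mice and 0 higher. That is 94.9% of the members, against 16.2% of all tested genes lower and 17.2% higher. At an unadjusted p under 0.05, 77 members were lower and 0 higher, and DESeq2 called 0 higher. All members had a log2 fold change below 0, from −1.03 (Rplp0) to −0.28 (Rps15a). Their median was −0.67, that of all tested genes −0.02. In 78 of 79 members (98.7%) every TD139-treated mouse lay below every vehicle-treated mouse, as was so for 25.4% of all tested genes. The median was −0.67 for the 46 members of the large subunit, where 44 were lower, and −0.66 for the 33 of the small subunit, where 31 were lower. Of the 75, 48 kept their call in each of the 9 fits without 1 mouse, and 27 lost it in 1 to 6 of them. The 4 members not called were Rpl30, Rpl34, Rps27 and Rps4y2.

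**Figure D2:**
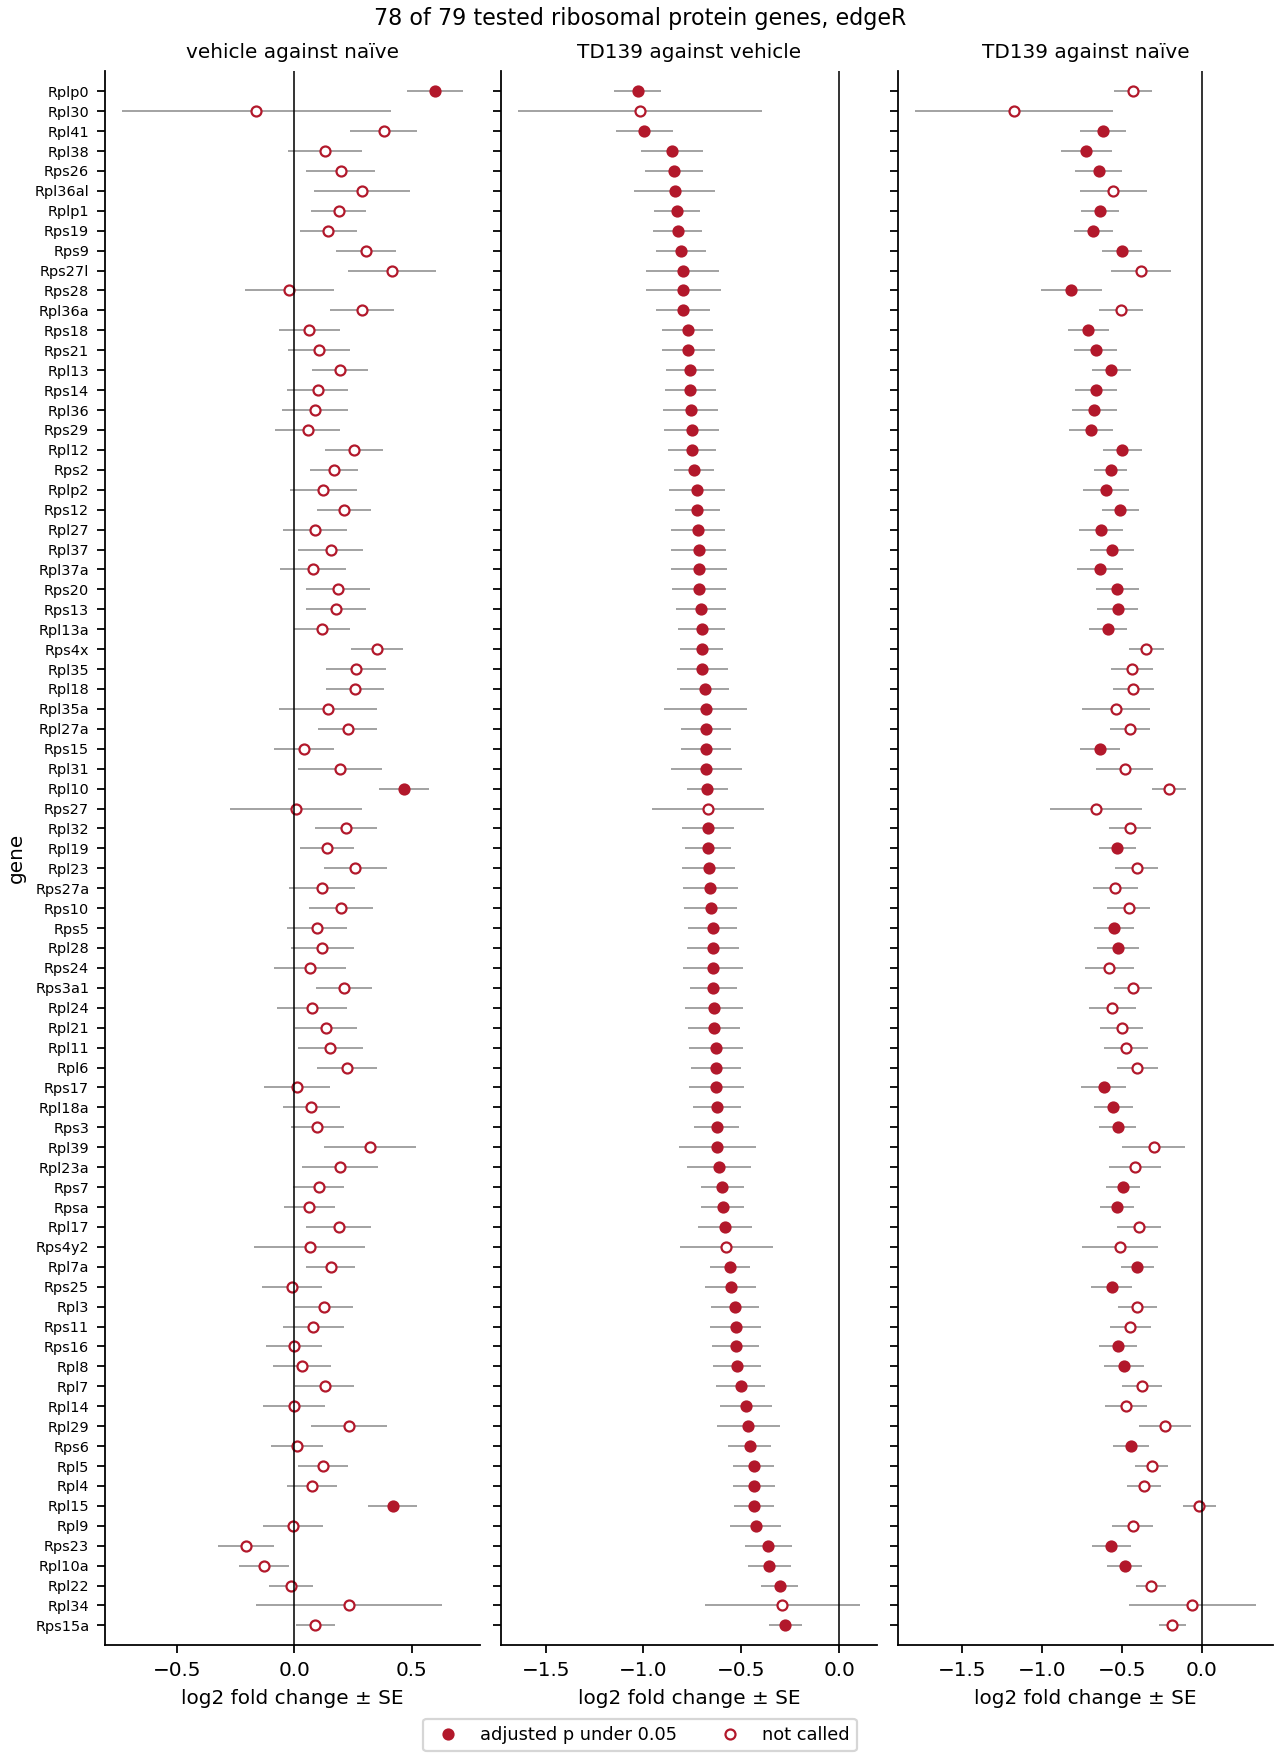
Log2 fold change ± SE of 78 of the 79 tested members in each of the 3 comparisons, ordered by the change from vehicle to TD139. Filled points had an adjusted p under 0.05 in edgeR's quasi-likelihood test; in the middle panel all points lie left of 0 and nearly all are filled, and 3 are filled in the left panel. The comparisons share mice.

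All 3 stalk genes were lower. Rplp0, with the largest change of all members, had 74.3, 56.2 and 61.5 CPM in TD139-treated mice and 119.6 CPM or more in vehicle-treated mice. The groups did not overlap, and its log2 fold change was −1.03 ± 0.12 (adjusted p = 0.005).
Rplp1 had 515.7, 512.3 and 530.0 CPM in vehicle-treated and 303.6, 267.2 and 307.0 CPM in TD139-treated mice. Its log2 fold change was −0.83 ± 0.12 (adjusted p = 0.005). Rplp2, its partner in the stalk, went from 158.7, 184.8 and 183.4 to 119.4, 103.3 and 95.95 CPM, a log2 fold change of −0.73 ± 0.14 (adjusted p = 0.00681). All 3 stalk genes kept an adjusted p under 0.05 when any of the 9 mice was left out. With the correction for length and GC content described below, Rplp0 and Rplp1 kept their calls and Rplp2 did not (−0.22, adjusted p = 0.0692).

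Rpl41 encodes the smallest ribosomal protein, and Rpl38 a protein known for selective translation of Hox mRNAs. Rpl41 fell from 155.0, 181.5 and 184.2 to 94.8, 76.2 and 90.1 CPM, with a log2 fold change of −0.997 ± 0.145 (adjusted p = 0.005). Rpl38 fell from 53.6, 61.7 and 71.6 to 41.0, 30.3 and 32.1 CPM, with a log2 fold change of −0.86 ± 0.16 (adjusted p = 0.0061). Both had transcripts of under 600 bases. At the other end, Rps15a fell from 153.0, 150.5 and 163.3 to 135.0, 129.5 and 121.1 CPM, a log2 fold change of −0.28 ± 0.09 (adjusted p = 0.0295). Rpl22, whose loss is known to disturb T-cell development, and Rpl10a were next among members with a mean of at least 50 counts, at −0.30 and −0.36. The calls for Rps15a, Rpl22 and Rpl10a were lost in 5, 4 and 4 of the 9 fits without 1 mouse.

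Small subunit genes ranged from −0.84 to −0.28. Rpsa, which doubles as a laminin receptor, went from 218.0, 233.5 and 252.5 CPM to 168.6, 150.0 and 147.4 CPM with TD139. The log2 fold change was −0.60 ± 0.11 (adjusted p = 0.00598). Rps6, the target of the S6 kinases downstream of mTOR, went from 133.6, 150.4 and 147.5 to 109.5, 105.1 and 99.98 CPM. Its log2 fold change of −0.46 ± 0.11 (adjusted p = 0.012) was lost in 2 of the 9 fits without 1 mouse and with the correction (−0.06, adjusted p = 0.489). Rps27a, made as a fusion with ubiquitin, had a log2 fold change of −0.66 ± 0.14 (adjusted p = 0.0083). Fau, a ribosomal protein made as a fusion with a ubiquitin-like protein, which the symbol rule does not take, had −0.78 (adjusted p = 0.005). The ribosomal scaffold Gnb2l1 (Rack1) had −0.52 (adjusted p = 0.00652). With the correction Rps27a (−0.28), Fau (−0.19) and Gnb2l1 (−0.20) lost their calls (adjusted p = 0.0567, 0.0795 and 0.055). The paralogs Rpl22l1 and Rpl7l1 did not pass the threshold, at −0.41 and −0.21.

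Rpl5 and Rpl11, which bind a ribosomal RNA and hold back Mdm2 when ribosome assembly fails, fell by 0.44 and 0.63 on the log2 scale (adjusted p = 0.0122 and 0.00921). Rpl5 lost its call in 2 of the 9 fits without 1 mouse, and Rpl11 lost it with the correction (−0.16, adjusted p = 0.137). The 18 members mutated in Diamond-Blackfan anaemia, a failure of red cell production, had 17 lower, where 16.2% of all tested genes were, and a median of −0.68. With the correction 8 of the 18 were lower (median −0.34), against 9.67% of all tested genes. Rps19, the first of these to be linked to the disease, fell from 72.5, 84.1 and 89.8 to 49.0, 45.1 and 45.0 CPM (log2 fold change −0.83 ± 0.12, adjusted p = 0.005).
Genes often used as references in PCR were lower too. Of Rplp0, Rpl13a, Rps18, Rpl32 and Rpl19, all 5 were called, with fold changes from −1.03 to −0.67, and Rpl19 lost its call with the correction (−0.15, adjusted p = 0.163). Rpl13a went from 401.5, 451.0 and 474.5 to 289.9, 265.1 and 260.1 CPM. Rps18 went from 85.4, 97.1 and 101.5 to 61.0, 53.2 and 51.9 CPM. In both, the highest TD139-treated mouse lay below the lowest vehicle-treated one.

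Of the X-linked members Rpl10, Rpl36a, Rpl39 and Rps4x, all 4 were lower, and the call for Rpl39 was lost in 5 of the 9 fits without 1 mouse and with the correction (−0.27, adjusted p = 0.187). Rpl36a and its autosomal paralog Rpl36al had −0.80 ± 0.14 and −0.84 ± 0.21 (adjusted p = 0.00568 and 0.013), and Rpl36al lost its call in 3 of the 9 fits without 1 mouse. Rps27l, a paralog of Rps27 induced by p53, went from 11.3, 12.9 and 13.3 to 8.79, 6.61 and 6.17 CPM. Its log2 fold change was −0.80 ± 0.19 (adjusted p = 0.011), a call lost in 2 of these 9 fits. Rps27 itself had 1.86, 2.19 and 1.92 CPM against 1.30, 1.57 and 0.869, a change of −0.67 ± 0.29 that missed the threshold (adjusted p = 0.0904). Rps4y2, listed in GENCODE as Rps4l, a transcribed processed pseudogene on chromosome 6, had 38.3, 47.3 and 29.0 CPM against 28.4, 23.2 and 25.3, and was not called (adjusted p = 0.0856). The muscle paralog Rpl3l had 213 reads in vehicle-treated mouse 2, the mouse with muscle transcripts, and 1 to 9 in the other 8 mice. The ubiquitous Rpl3 had 299.5 CPM in that mouse, between the 276.9 and 312.3 CPM of the other vehicle-treated mice. Without vehicle-treated mouse 2, the 75 called members became 67, with a median of −0.64. The fewest, 50, were called without TD139-treated mouse 2 or 3.

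The members were also divided by features that the symbol rule did not use. The 13 tested members with the tract at a listed start had a median of −0.67, and the 45 with listed starts and no tract there −0.68. The 30 members that hold one or more of 58 snoRNA genes within the gene had a median of −0.64, the 49 others −0.67. The 10 tested members with at least 80% unique windows had a median of −0.60 with 9 lower, and the 18 with under 20% a median of −0.65 with 17 lower. These medians are descriptions with no test.

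**Figure D3:**
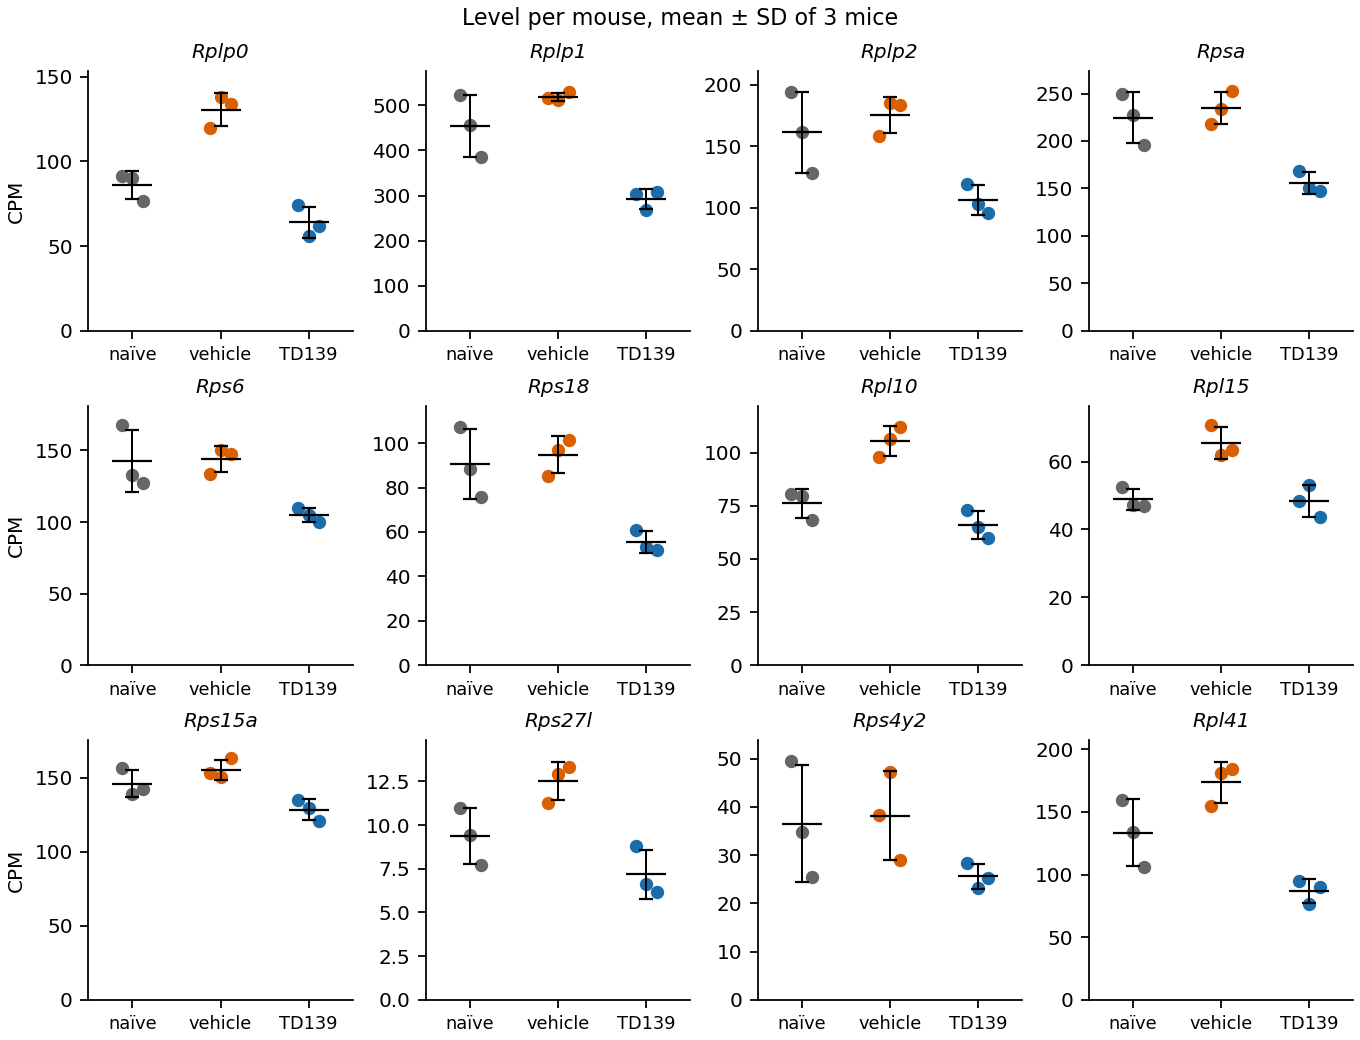
CPM per mouse of 12 members in naïve, vehicle-treated and TD139-treated mice; points are mice, lines and bars the mean ± SD of 3 mice, and each axis starts at 0. In each panel the TD139-treated mice lie below the vehicle-treated ones, whereas Rplp0, Rpl10, Rpl15 and Rps27l are separated between naïve and vehicle-treated mice with vehicle higher.

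TD139-treated mice had 40 members lower than naïve mice and 0 higher. This was 50.6% of the members, against 2.38% of all tested genes lower and 2.72% higher. At an unadjusted p under 0.05, 70 members were lower and 0 higher, and DESeq2 called 0 higher. The median log2 fold change was −0.51, with all 79 below 0, and every TD139-treated mouse lay below every naïve mouse in 66 members (83.5%), against 16.8% of all tested genes. This comparison and that with vehicle-treated mice use the same TD139-treated mice.

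Rpl30, with under 50 counts per mouse, was at −1.18 ± 0.62 and was not called (adjusted p = 0.229). Among members with more counts Rps28, Rpl38 and Rps18 had the lowest values, with log2 fold changes of −0.82 ± 0.19, −0.72 ± 0.16 and −0.71 ± 0.13 (adjusted p = 0.0438, 0.042 and 0.0407). Rps28 went from 15.4, 15.3 and 13.5 CPM in naïve to 8.68, 6.30 and 10.1 CPM in TD139-treated mice. Rps23 also fell, by 0.57 on the log2 scale (adjusted p = 0.042). Of the 3 genes that had been higher in vehicle-treated mice, none passed the threshold here. Rpl15 had 48.5, 53.0 and 43.7 CPM in TD139-treated mice, which overlapped its naïve values (log2 fold change −0.01 ± 0.10, adjusted p = 0.941). Rpl10 had −0.20 ± 0.11 (adjusted p = 0.221) and also overlapped, and Rplp0 had −0.43 ± 0.12 (adjusted p = 0.0555) with the groups separated.
The count of 40 was not stable. It was 0 when only naïve and TD139-treated mice were fitted. Leaving out naïve mouse 1, naïve mouse 2, the second vehicle-treated mouse, or TD139-treated mouse 2 or 3 also gave 0, whereas it was 67 without naïve mouse 3, 58 without TD139-treated mouse 1, 24 without vehicle-treated mouse 3 and 19 without vehicle-treated mouse 1. DESeq2 called 65.

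The change followed transcript length across the genome, and the members are short. Their median transcript was 887 bases, that of all tested genes 3003 bases, and 50 of the 79 members were under 1000 bases. From vehicle-treated to TD139-treated mice, the 214 other genes under 600 bases had a median log2 fold change of −0.39 and the 18 members of that length −0.76. From 600 to under 1000 bases the medians were −0.48 for 697 other genes and −0.65 for 32 members. From 1000 to under 2000 bases they were −0.30 for 3107 other genes and −0.63 for 24 members. The members thus lay below other genes in each of these ranges.
From 2000 to under 4000 bases the medians were −0.04 for 6129 other genes and −0.56 for 4 members. At 4000 bases and more, 4840 other genes had 0.29, and the single member, Rps15a, −0.28. The share called lower ran from 28.0% of other genes under 600 bases to 42.2% in the next range and 4.38% at 4000 bases or more, against 94.4% and 90.6% of members in the first 2 ranges.
Across 14987 other genes, log2 fold change and length had a Spearman's correlation of 0.48 and, across the 79 members, 0.39. For GC content these were −0.37 and −0.31. From naïve to TD139-treated mice the values with length were 0.59 and 0.46, and from naïve to vehicle-treated mice −0.10 and 0.07. These describe genes of the same libraries.

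**Figure D4:**
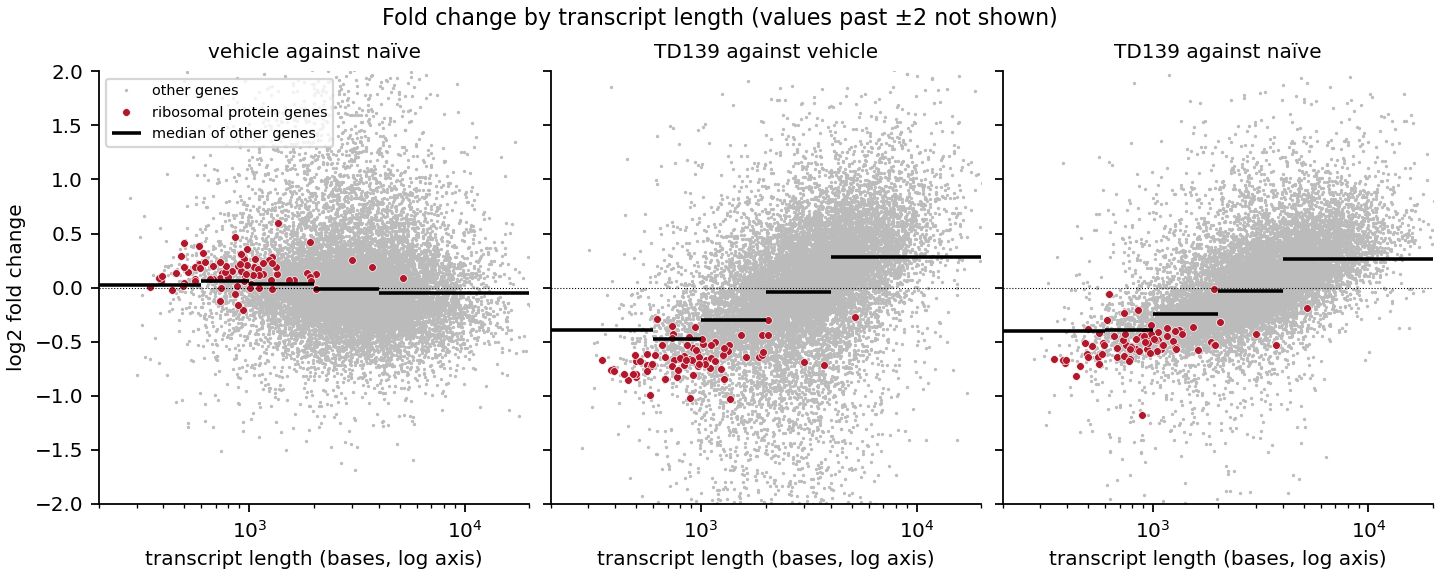
Log2 fold change against transcript length (log axis, bases) in the 3 comparisons, with other genes in grey, the 79 members in red and the median of other genes in 5 ranges of length as black lines. In the middle panel the black lines rise from −0.39 and −0.48 at the left to 0.29 at the right and most members lie below them.

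The trend of length and GC content over the other genes was then taken out of each mouse, with the members left out of its fit. Against vehicle-treated mice, 39 members (49.4%) remained lower in TD139-treated mice and 0 were higher, where 9.67% of all tested genes were lower. All 39 were also lower without this step. Of the members named so far, Rpl10a, Rpl11, Rpl19, Rpl22, Rpl3, Rpl39, Rpl4, Rplp2, Rps15, Rps23, Rps27a, Rps28 and Rps6 lost their calls. The median of the members was −0.26, that of all tested genes 0.01, and 4 members lay above 0. Rplp0 had −0.64 ± 0.07 and Rpl41 −0.47 ± 0.07, each with an adjusted p of 0.0093. Rpl10a changed direction, to 0.16 ± 0.10 (adjusted p = 0.255).
The size for single genes hung on the length assigned. Rps15a, with a principal transcript of 5179 bases, had −0.62 (adjusted p = 0.0113) with that length and −0.06 (adjusted p = 0.584) with its shortest principal transcript of 640 bases. Rpl18 had −0.62 and −0.27, both past the threshold. Rps20, named after its values were seen, has 3706 bases as both its principal and its shortest principal transcript. Its own length therefore did not vary between these fits, where it had −1.04 and −1.08, against −0.72 as counted. With the shortest principal transcripts 46 members were lower and the median was −0.31.
Against naïve mice, 0 members and 0% of all tested genes were lower in TD139-treated mice after this step. The members' median was −0.17, and 33 of them were at an unadjusted p under 0.05, all lower. Vehicle-treated against naïve mice had 6 members higher (7.59%), where 7.69% of all tested genes were: Rplp0, Rpl10, Rpl15, Rpl41, Rps4x and Rps9.

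Mouse by mouse, the median of the members relative to the naïve mean was 0.24, −0.05 and −0.19 on the log2 scale in naïve mice and 0.01, 0.17 and 0.26 in vehicle-treated mice. It was −0.35, −0.56 and −0.57 in TD139-treated mice. Naïve mice 1 and 3 differed as widely in the 911 other short genes, at 0.21 and −0.21. With the trend taken out, the members were at 0.06, −0.04 and −0.02 in naïve mice, at 0.03, 0.03 and 0.15 in vehicle-treated mice, and at −0.14, −0.15 and −0.22 in TD139-treated mice. The TD139-treated mice were still the lowest 3 of the 9 (exact permutation p = 0.1 against either group, the smallest possible). As with the shares of reads, this p describes a set chosen with earlier results known and is no support. The other short genes had medians from −0.04 to 0.04 in all mice after this step. They were part of the fit of the trend, so values near 0 follow from it and are no comparison for the members. The proteasome subunits, also in the fit, had the TD139-treated mice lowest too, at −0.10, −0.08 and −0.13 against −0.04 to 0.04. In the mitochondrial ribosomal protein and oxidative phosphorylation sets the TD139-treated mice overlapped with others after this step.

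**Figure D5:**
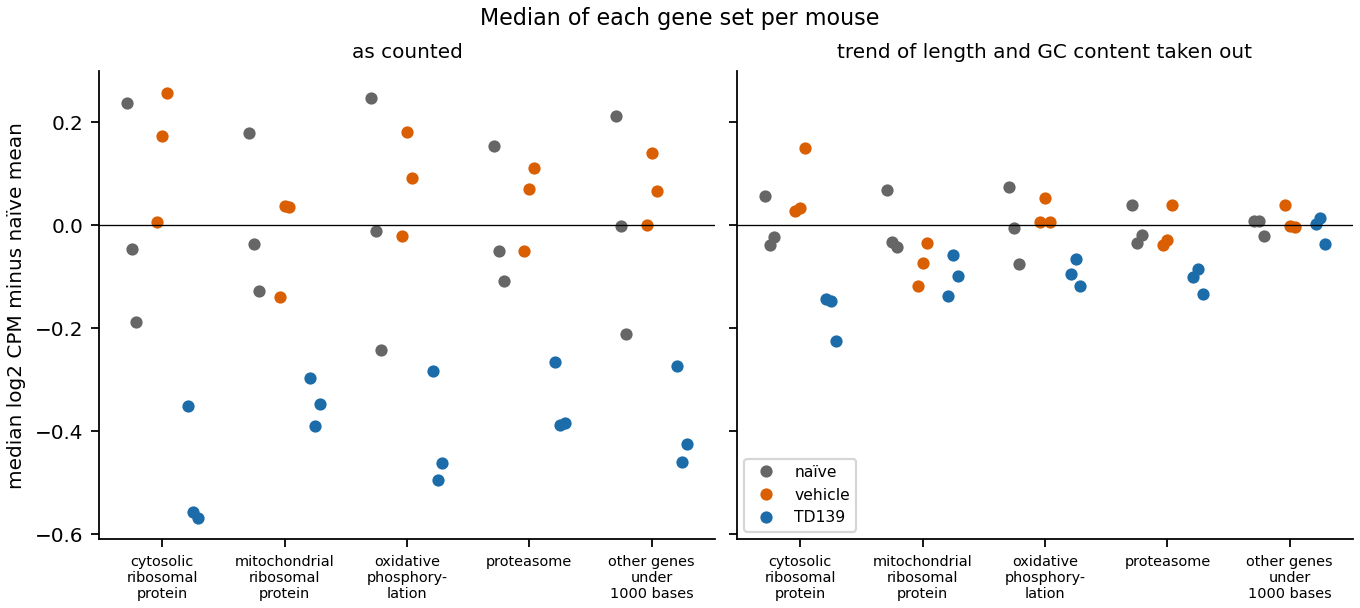
Median over each gene set of log2 CPM minus the gene's naïve mean, per mouse, as counted (left) and with the trend of length and GC content taken out (right). Points are mice. On the left all sets are lowest in TD139-treated mice; on the right the 911 other genes under 1000 bases, which were in the fit of the trend, lie between −0.04 and 0.04 and the cytosolic ribosomal protein genes of TD139-treated mice between −0.22 and −0.14.

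Other sets of genes for protein synthesis and energy supply were counted in the same comparison of TD139-treated with vehicle-treated mice, where 16.2% of all tested genes were lower and 17.2% higher as counted, and 9.67% and 10.1% with the trend taken out. Of 76 mitochondrial ribosomal protein genes, which make the ribosome of the organelle, 32 were lower and 0 higher, with a median of −0.34 as counted and −0.03 with the trend taken out. Of 80 nuclear genes of oxidative phosphorylation, 65 were lower (medians −0.53 and −0.10), and of 37 proteasome subunits 24 were lower (−0.36 and −0.12). After the trend was taken out, 9, 16 and 6 genes of these sets were lower and 1, 0 and 0 higher, which for the mitochondrial set (11.8%) is near the share over all genes. Without vehicle-treated mouse 2, 17 of the mitochondrial, 47 of the oxidative phosphorylation and 17 of the proteasome genes were lower as counted. The share of all tested genes lower in that fit is not given here, and the 16.2% does not apply to it.
Of 11 elongation factors 6 were lower, among them Eef1a1, which brings aminoacyl-tRNA to the ribosome, at −0.56 ± 0.10 (adjusted p = 0.00588) as counted and −0.39 (adjusted p = 0.0141) with the trend taken out. With the trend taken out, 2 of the 11 were lower. Of 15 other mRNAs with a TOP tract 8 were lower, among them Tpt1 (−0.62, adjusted p = 0.00598) and the intermediate filament gene Vim (−1.47, adjusted p = 0.00543). With the trend taken out, 3 of the 15 were lower (median −0.13 against −0.31 as counted), and Vim was at −1.23 (adjusted p = 0.0108) and Tpt1 at −0.19 (adjusted p = 0.176). Against naïve mice both were higher in vehicle-treated mice, Vim at 1.14 and Tpt1 at 0.50 (adjusted p = 0.0216 and 0.0269). Of 39 initiation factors 12 were lower and 1 higher (median −0.16), and 5 (12.8%) and 1 with the trend taken out (median −0.04), near the share over all genes. Of 34 genes of ribosome biogenesis, which build the subunits in the nucleolus, 1 was lower and 1 higher (median −0.07), and Ncl, Ubtf and Mybbp1a were at −0.05, −0.01 and 0.06. With the trend taken out, 4 of the 34 were lower and 3 higher (median 0.01), and Ncl was lower at −0.63 (adjusted p = 0.0121). Of 19 genes of mTOR and LARP1 control, 7 were higher and 3 lower (median 0.24), with Mtor at 0.40 ± 0.09 (adjusted p = 0.0117) as counted and 0.08 (adjusted p = 0.526) with the trend taken out. After that step 1 of the 19 was higher (5.26%, below the share over all genes) and 1 lower (median 0.06).

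Cell type markers moved in the same comparison. The 6 microglial markers summed to 111.0 to 189.9 CPM in vehicle-treated and 17.9 to 69.4 CPM in TD139-treated mice, and 4 of them were lower. The 69.4 CPM was TD139-treated mouse 1, which stood apart from the 20.2 and 17.9 CPM of mice 2 and 3. In naïve mice these markers summed to 22.2 to 26.3 CPM. Of the 6 rod markers, 2 were higher in TD139-treated than in vehicle mice (median log2 fold change 0.43), and 4 were lower in vehicle-treated than in naïve mice (median −0.65). The 4 Müller glia markers lay at 3817 to 4285 and 3646 to 4076 CPM, with 0 called in either direction and 1 lower at an unadjusted p under 0.05. The 4 bipolar cell markers summed to 1123 to 1285 and 1375 to 1392 CPM, with 3 higher and 1 lower. The 4 markers of the retinal pigment epithelium summed to 198.6 to 417.0 CPM in vehicle-treated and 112.8 to 165.3 CPM in TD139-treated mice, and 2 of the 3 tested were lower (median −0.89). The 417.0 CPM was vehicle-treated mouse 2, and without it 0 of the 3 were called (median −0.64) and 2 were lower at an unadjusted p under 0.05. The 3 endothelial markers summed to 29.7 to 35.3 and 21.5 to 24.0 CPM, and Cldn5 was lower (−0.71, adjusted p = 0.0191). Of the 4 cone markers 0 were called and 1 was higher at an unadjusted p under 0.05. With the trend of length and GC content taken out, 4 of the 6 microglial markers were lower, and 4 of the 6 rod markers and 1 of the 4 cone markers were higher. Of the Müller glia markers 2 were then lower, among them Slc1a3 (−0.68, adjusted p = 0.046), and of the bipolar markers 1 was higher and 0 lower (median 0.06). In that fit 0 markers of the pigment epithelium and 0 of the endothelium were called, with 2 and 1 at an unadjusted p under 0.05, all lower, and Cldn5 was at −0.22 (adjusted p = 0.326). Without vehicle-treated mouse 2, as counted, 5 rod and 2 bipolar markers were higher, 1 Müller glia and 1 bipolar marker lower, 4 microglial markers lower and 0 endothelial or cone markers called, with 1 and 0 at an unadjusted p under 0.05. Reads outside annotated genes made up 16.5 to 19.4% in vehicle-treated, 19.1 to 19.9% in naïve and 21.3 to 22.8% in TD139-treated mice. No list had all its defining markers at 0. The part of cell composition, of RNA quality and of these reads in the level of the ribosomal protein genes was not tested.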

How the data were processed

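Retinal RNA of 9 mice (3 naïve, 3 vehicle-treated, 3 TD139-treated) was sequenced as single reads on 2 flow cells, after library preparation with a stranded mRNA kit. The authors deposited, per mouse and flow cell, whole-number read counts per gene symbol from BaseSpace RNA Express, not normalized. The labels name mm10 as the genome build. The annotation and the handling of reads with several matches or of strand are not given in the sources used here. Counts of both runs were summed per mouse. The chi-square per degree of freedom over members was 1.52 to 2.29 between the runs of a mouse and 5.95 to 13.1 between mice of a group. Reads without a gene (16.5 to 22.8%) or ambiguous between genes (0.303 to 0.471%) were left out.

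The 3 groups entered 1 fit of edgeR 4.0.16 (R 4.3.3), a robust quasi-likelihood F test after filterByExpr and TMM scaling. The Benjamini-Hochberg adjustment ran over all 15196 genes in the fit, and a gene was called at an adjusted p under 0.05. The SE is the log2 fold change divided by the root of F. Symbols were joined to GENCODE M21 (GRCm38) for positions, length and GC content (98.36% matched, 1260 by an older symbol), using the principal transcript. The trend of length and GC content was a spline of 4 degrees of freedom on each, fitted per mouse to log2 CPM (prior count 2) without the members and used as an offset. Windows of 50 bases were compared with all GENCODE transcripts. Depth of 26171887 to 30201517 reads puts the floor of 3 reads well under most tested members but close to Rpl30 (4 to 27 reads), and floors cover counting error only. The p-values measure the spread between these mice. Steps were tested on simulated data. For the calls of changed genes, the simulated fold was raised and the pass mark lowered after an earlier run had failed. That pass is therefore no independent check. In the simulation the correction for length and GC content recovered the median of a shift set for the members but called few of them. A missing call with it is therefore not by itself a lack of change. In the mice its counts were not lower throughout: 1169 genes were higher in vehicle-treated than naïve mice with it, 746 without. For the members, TD139 against vehicle, the median SE was 0.08 with it and 0.13 without, and the median change −0.26 and −0.67.

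The members and lists were chosen with earlier results of these data known. Named were members fixed by their role, the 2 with the most counts and, per comparison, the 3 highest and 3 lowest with a mean of at least 50 counts, as well as up to 3 genes with the most counts of a list. Role groups, the muscle genes and Rps20 were chosen after values were seen. Alternatives were RLE or library size alone, other filters, DESeq2 1.42.0, limma 3.58.1 voom, only the groups compared, the replicate number as a block, single runs, longest or shortest transcripts and each mouse left out. The correlation of deviations between mice of the same number ran from −0.26 to 0.28, so numbers were not taken to pair mice. A few genes that the naming rule takes are not reported here.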

Additional observations from a re-analysis of the deposited data

How the results depend on the processing

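Direction of the members' median was kept under all alternatives run in all 3 comparisons. With RLE, library size, other filters, DESeq2, voom, only the groups compared or single runs, 73 to 77 members were lower with TD139 than with vehicle. Library size alone moved the median of all genes in that comparison to −0.10. Leaving out each mouse gave 50 to 76 lower members and medians of −0.75 to −0.61.

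With the trend of length and GC content taken out, 39 members were lower (median −0.26). They were 37 (−0.28) with longest transcripts and 46 (−0.31) with shortest principal transcripts, the latter chosen after seeing the data. For TD139-treated against naïve mice these 3 settings gave 0 lower members with medians of −0.17, −0.18 and −0.20, and for vehicle-treated against naïve mice 6, 5 and 6 higher members. Voom gave 6 higher there. For TD139-treated against naïve mice the count of lower members was 26 with library size alone, 65 with DESeq2, 74 with voom, 0 with only the groups compared and 0 to 67 without 1 mouse, with medians of −0.59 to −0.37. For vehicle-treated against naïve mice leaving out 1 mouse gave 0 to 4 higher members and medians of 0.0589 to 0.269. The cause of these changes was not tested, apart from the trend that the correction itself takes out. Shares of all tested genes called are given for the main fit and the fit with the correction only. Counts of members from the other fits stand without that share and cannot be set against it.

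With the replicate number as a block, 3 members were higher in vehicle-treated mice, and 74 and 0 were lower in TD139-treated mice against vehicle and naïve. With the replicate block and the correction together the counts were 6, 33 and 0, with medians of −0.26 and −0.17 for the last 2. The mice share only a number, and the block was not used further. Rpl10a turned from −0.36 to 0.16 with the correction, to 0.0695 with longest and 0.11 with shortest principal transcripts, and to 0.15 with the block and the correction. Of the other values for named members called, 744 kept their side of the threshold and 264 did not.

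Uniqueness of windows was judged against transcripts, since no genome was used here. The share without mitochondrial genes was not run, as the tables hold 0 such genes. With 3 mice per group, an exact permutation test cannot go below 0.1.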
